A study of Mus musculus with 8 samples.

Results

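Transcripts of 8 genes for the structure of myelin, Mbp, Mog, Mag, Mobp, Mal, Cldn11, Opalin and Ugt8a, were followed by single-nuclei RNA-seq through the cell types of the mouse brain. They were chosen by name, with earlier results of these data known, from the 32285 genes of the deposited tables, and all 8 were found.

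The myelin sheath is a stack of oligodendrocyte membrane that is held together by a small set of dedicated proteins and lipids. MBP adheres to the cytoplasmic faces of the membrane and brings them into contact, MAG faces the axon, MOG sits on the outer surface of the sheath, OPALIN is a membrane glycoprotein of oligodendrocytes, CLDN11 forms the tight junctions between myelin layers, MAL sorts membrane to myelin, MOBP lies in compact myelin beside MBP, and UGT8A makes the galactolipids of the sheath. Oligodendrocyte precursor cells (OPC) give rise to newly formed oligodendrocytes (NFOL) and these to mature oligodendrocytes (MOL), and the transcripts of myelin proteins are known to accumulate along this path.

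The samples were brain hemispheres without cerebellum and olfactory bulb from 6-month-old C57BL6/J mice of 4 genotypes with 2 libraries each. These were WT mice, mice with Cnp deleted (Cnp-/-), mice with the 5xFAD transgenes, and Cnp-/- 5xFAD mice that carried both. Cnp-/- mice lack CNP, an enzyme of non-compact myelin, in all cells from the germline on, and 5xFAD mice express mutant human transgenes from the neuronal Thy1 promoter and form amyloid plaques. The labels name no treatment. Reads came from the 3′ end of captured transcripts, and copies of 1 molecule were counted once by their molecular tag (UMI). For the study's single-cell work in general, 2 animals are said to be pooled per replicate, whereas the passage on these 6-month samples does not say so, and P values therefore measure the spread between libraries.

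The 8 libraries held between 6801 and 8824 nuclei and a total of between 68905044 and 82399061 UMIs. The authors' annotation named 1522 OPC, 465 NFOL and 5612 MOL, and in a separate table of microglia and macrophages it named 270 nuclei as myelin transcript enriched microglia (MyTE). Median depth differed between these classes, with 3036 UMIs per nucleus in OPC, 4852 in NFOL, 1515 in MOL and 2762 in MyTE. Of 61494 distinct barcodes, 454 occurred in more than 1 library. Levels are given as counts per 1000000 UMIs (CPM) of the summed nuclei of a class in a library. They are compared between classes and libraries for each gene, not between genes, because a 3′ count is not a level per transcript length. Classes were defined from the expression of these same nuclei, so that differences between classes are descriptions without a test.

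The labels of the 3 oligodendrocyte classes were checked with marker lists. The 5 OPC markers summed to 8403 to 9656 CPM in OPC and to at most 44.4 CPM in MOL, but still to 3889 to 5123 CPM in NFOL. The 7 MOL markers, all of them apart from the 8 myelin genes, reached 12789 to 16274 CPM in MOL. The 6 NFOL markers reached 2512 to 5983 CPM in NFOL, compared with 1808 to 2147 CPM in OPC and 1310 to 1527 CPM in MOL. NFOL libraries also carried 1490.2 to 3884 CPM of 6 astrocyte markers, compared with 206 to 345 CPM in MOL. Of these markers, Slc1a2 and Slc1a3 were highest in NFOL, at 1431 and 672 CPM pooled over the libraries. They were at 330 and 300 CPM in OPC and 9.85 and 242 CPM in MOL.

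The 8 genes lie on 7 chromosomes. In GENCODE positions for GRCm38, Mog spans chr17:37010743-37023398 on the minus strand, Mag chr7:30899176-30914873 (minus), Mobp chr9:120149707-120181484 (plus), Mal chr2:127633226-127656695 (minus), Opalin chr19:41061710-41077113 (minus), Cldn11 chr3:31149920-31164324 (plus) and Ugt8a chr3:125865271-125938619 (minus). Mobp overlaps the non-coding gene Gm38642 on its own strand, Mbp a pseudogene and Mog a small RNA gene on the opposite strand, and no member overlaps another protein-coding gene.

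Promoter windows of 300 bases, from 250 before to 50 after an annotated transcription start, were available from RefSeq (GRCm38.p6) for 7 of the 8 genes, 9 windows in all, since Mag has 3, of which 2 overlap. They were searched on both strands for ACAAAG, a core of the site bound by SOX factors such as SOX10, and for CTGGCAC, a core of the site of the oligodendrocyte factor MYRF. ACAAAG stood in 4 of the 9 windows, those of Mobp and Opalin and the 2 overlapping ones of Mag, while 18.7% of 32851 mouse windows of this length hold it, and CTGGCAC stood in 3, that of Opalin and the same 2 of Mag, compared with 5.01% of all windows. No match of one overlaps a match of the other. The windows of 5 genes are printed 5′ to 3′ on the strand of the gene, with the matches, or their reverse complements, in capitals. Opalin and 1 window of Mag are shown because they hold both motifs and Mobp because it holds 6 copies of the first. Mal and Ugt8a are shown because their levels differed most from those of the other members, in endothelial cells and in OPC respectively, and they hold neither motif, as do Cldn11 and Mog. The windows are chr19:41077064-41077363 for Opalin, chr7:30914814-30915113 for Mag, chr9:120149492-120149791 for Mobp, chr2:127656646-127656945 for Mal and chr3:125938603-125938902 for Ugt8a.
Opalin: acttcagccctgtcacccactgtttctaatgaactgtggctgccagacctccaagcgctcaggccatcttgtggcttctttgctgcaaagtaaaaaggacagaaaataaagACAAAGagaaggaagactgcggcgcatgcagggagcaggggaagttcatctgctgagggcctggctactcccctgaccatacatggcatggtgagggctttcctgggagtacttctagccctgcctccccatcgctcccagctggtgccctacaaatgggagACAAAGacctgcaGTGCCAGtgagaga
Mag: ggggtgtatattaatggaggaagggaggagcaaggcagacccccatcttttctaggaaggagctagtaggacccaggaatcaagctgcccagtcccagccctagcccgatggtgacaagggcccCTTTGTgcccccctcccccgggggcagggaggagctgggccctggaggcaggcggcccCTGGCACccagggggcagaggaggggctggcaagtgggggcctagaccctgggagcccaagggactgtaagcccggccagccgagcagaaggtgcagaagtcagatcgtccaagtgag
Mobp: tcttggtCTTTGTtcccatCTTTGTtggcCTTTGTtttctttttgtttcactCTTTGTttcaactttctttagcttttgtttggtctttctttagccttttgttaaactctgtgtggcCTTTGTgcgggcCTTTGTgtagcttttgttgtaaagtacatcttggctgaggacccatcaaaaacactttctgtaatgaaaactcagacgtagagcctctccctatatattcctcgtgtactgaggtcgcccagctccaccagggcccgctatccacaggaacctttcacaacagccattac
Mal: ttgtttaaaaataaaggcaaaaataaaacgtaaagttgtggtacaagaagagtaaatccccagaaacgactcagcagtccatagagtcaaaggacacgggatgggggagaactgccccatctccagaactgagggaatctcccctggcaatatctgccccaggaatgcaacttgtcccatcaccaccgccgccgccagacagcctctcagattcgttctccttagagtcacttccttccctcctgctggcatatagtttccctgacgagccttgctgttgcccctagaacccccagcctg
Ugt8a: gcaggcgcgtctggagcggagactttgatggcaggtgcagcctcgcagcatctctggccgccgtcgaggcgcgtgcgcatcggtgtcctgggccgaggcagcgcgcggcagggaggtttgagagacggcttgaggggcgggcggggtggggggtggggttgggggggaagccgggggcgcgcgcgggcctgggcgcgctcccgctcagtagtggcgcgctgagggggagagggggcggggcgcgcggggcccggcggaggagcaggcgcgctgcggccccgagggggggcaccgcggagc
A match is a stretch of letters in these windows. Whether a factor binds there was not measured.

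Along OPC, NFOL and MOL, the level of each of the 8 genes was lowest in OPC and highest in MOL in every library, except that Ugt8a in WT replicate 1 was at 126 CPM in OPC and 112 CPM in NFOL. Mbp, which encodes a main protein of compact myelin, was at 17.1 to 88.0 CPM in OPC, 512 to 2659 CPM in NFOL and 4875 to 6393 CPM in MOL. Pooled over the libraries, OPC held 1.14% of the MOL level of Mbp and NFOL 29.6%. Without the NFOL nuclei that held at least as many astrocyte as NFOL marker UMIs, the NFOL share was 44.6%. Opalin, a glycoprotein of the paranodal and inner loops, stood at 0 to 14.3 CPM in OPC, 30.8 to 134 CPM in NFOL and 372 to 686 CPM in MOL. For both genes the ranges over 8 libraries did not overlap between the 3 classes.

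Ugt8a, the galactosyltransferase that makes galactosylceramide, was the member with a clear level in precursors. Its OPC levels were 126 and 114 CPM in WT, 122 and 161 CPM in Cnp-/-, 102 and 107 CPM in 5xFAD and 134 and 114 CPM in Cnp-/- 5xFAD. Every library thus lay above 100 CPM, or between 10.8% and 19.4% of the Ugt8a level in MOL of the same library. Pooled over the libraries, the other 7 genes reached between 0.654% (Mog) and 1.88% (Mal) of their MOL level in OPC. In NFOL the pooled share of the MOL level was between 13.6% for Mal and 29.6% for Mbp, with Ugt8a at 29.3%, Cldn11 at 23.1% and Mag at 21.4%. The order was not the same in each library, since Ugt8a exceeded Mbp in 5 of 8, Cldn11 was highest in WT replicate 1 (15.1%), and the share of Mbp ranged from 9.89% to 52.1%.

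Counted nucleus by nucleus, 99.3% of MOL nuclei held at least 1 Mbp UMI, compared with 69.2% of NFOL and 17.7% of OPC. Ugt8a was found in 65.9% of MOL, 53.3% of NFOL and 29.0% of OPC nuclei. Because the classes differ in depth, each nucleus was also thinned to 1000 UMIs, which left out 1081 MOL nuclei and no OPC or NFOL nucleus. After thinning, the shares with Mbp were 98.9%, 50.8% and 6.18%, and those with Ugt8a were 52.7%, 19.8% and 10.8%. Astrocytes, which should lack both transcripts, gave 3.72% for Mbp and 0.442% for Ugt8a after thinning, at a median of 2636 UMIs before it. Mbp was then found in 7.52% of neurons, 8.0% of macrophages, 4.62% of endothelial nuclei and 2.87% of pericytes. Its OPC share of 6.18% lay within this range. Mog, the target of antibodies in MOG-associated disease, was found in 70.2% of MOL, 17.8% of NFOL and 1.18% of OPC nuclei after thinning. It was found in 0.694% of astrocytes and 1.85% of endothelial nuclei, so that its OPC share lay between those of cell types without myelin.

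Single MOL nuclei held a median of 17 UMIs of the 8 genes together, from 6 of the 8 genes. At least 4 of the 8 were found in 92.0% of MOL, 43.4% of NFOL and 0% of OPC nuclei, and after thinning in 83.3%, 14.4% and 0%. Of 5612 MOL nuclei, 1 held no UMI of any member, while 18.9% of NFOL and 49.8% of OPC nuclei held none.

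**Figure D1:**
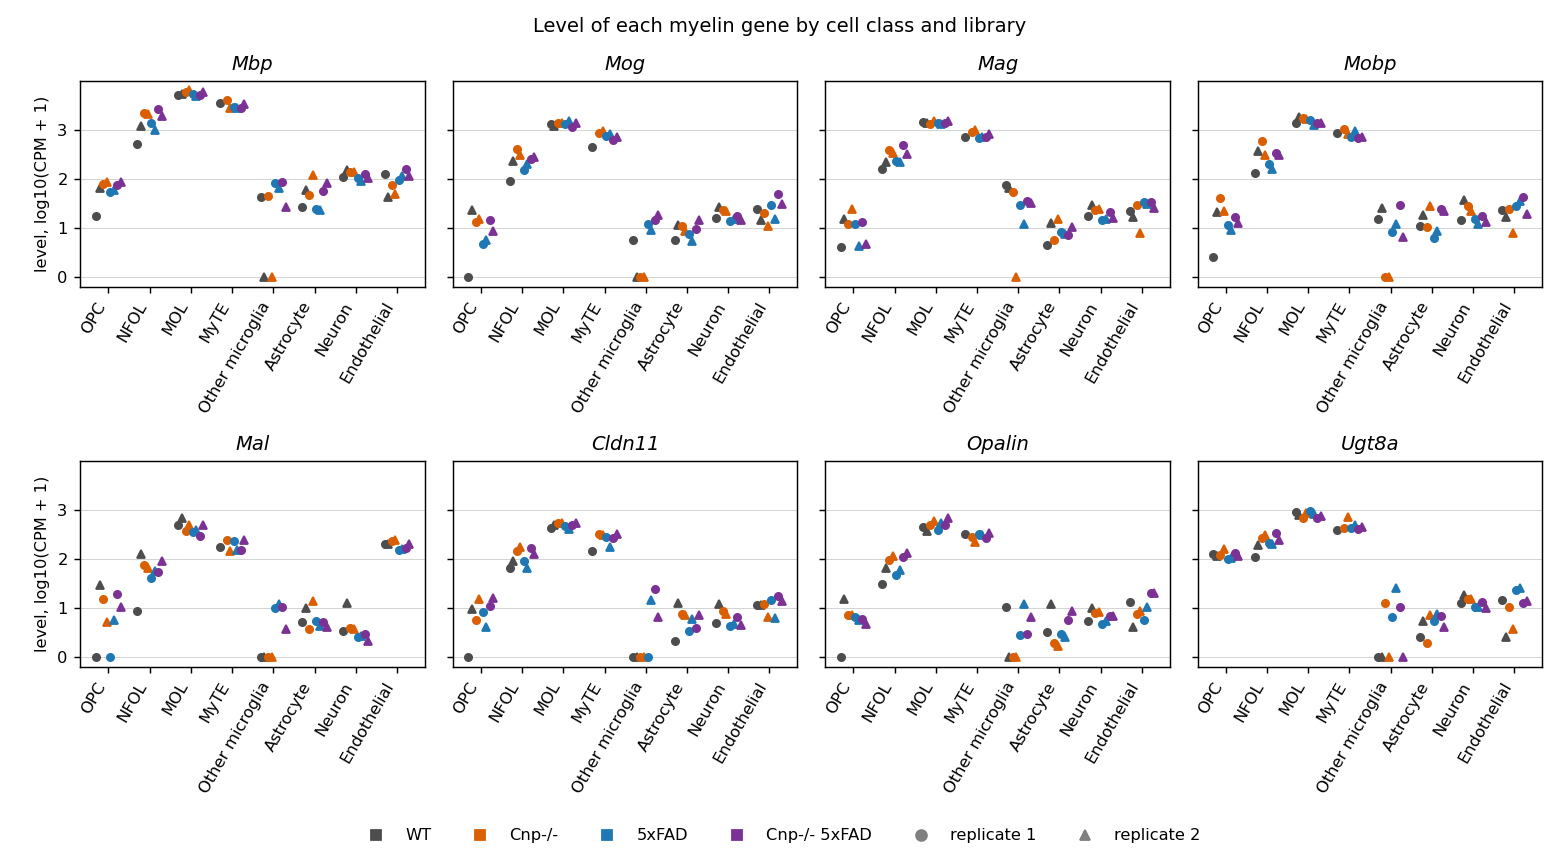
Level of each of the 8 myelin genes as log10(CPM + 1) (y axis) in 8 cell classes (x axis), 1 point per library, coloured by genotype and shaped by replicate; WT replicate 2 gives no MyTE point because it held 3 such nuclei. Each gene peaks in MOL, Ugt8a alone is above 100 CPM in every OPC library, and Mal alone is above 100 CPM in every endothelial library.

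In endothelial cells, neurons and astrocytes, the pooled levels of the members were at most 2.21% of those in MOL, with 1 exception. Mal, a raft protein that is also known from epithelial membranes, was at 201 and 208 CPM in endothelial nuclei of WT, 231 and 240 CPM in Cnp-/-, 156 and 159 CPM in 5xFAD and 166 and 207 CPM in Cnp-/- 5xFAD. Pooled, this was 45.2% of its MOL level, whereas the other 7 members had 1.51% to 2.21% of their MOL level in these nuclei. Mal was found in 48.5% of endothelial nuclei, and in 17.8% after thinning, compared with 0.57% of astrocytes.

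Neurons held Mbp at 121 CPM pooled, or 2.19% of the MOL level, and Ugt8a, Mag, Mog, Mobp, Opalin, Cldn11 and Mal at 1.52%, 1.39%, 1.36%, 1.25%, 1.23%, 1.18% and 0.756% of theirs. Mbp was found in 39.2% of neurons at their median of 9105 UMIs, and in 7.52% once thinned to 1000 UMIs, whereas Mog fell from 8.05% to 1.09% by the same step. The Mbp locus also encodes the golli transcripts, which neurons are known to express, and counts per gene do not separate them from the transcripts of myelin MBP.

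Across 63 profiles of a cell type in a library, the genes whose log2(CPM + 1) followed the mean of the 8 members most closely were A330049N07Rik (Pearson r of 0.977), C030029H02Rik (0.968), D7Ertd443e (0.965), Plekhh1 (0.961) and St18 (0.961). Among the members themselves r was highest for Opalin (0.983) and lowest for Ugt8a (0.877) and Mal (0.719). Each member is part of the mean it was compared with, which raises its r. These values therefore cannot be set beside those of the other genes. The profiles share libraries and differ in depth, so that r describes likeness and carries no P value.

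Mature oligodendrocytes of Cnp-/- and Cnp-/- 5xFAD mice were next compared with those of WT and 5xFAD mice, to ask whether the loss of CNP changes the transcripts of the other myelin proteins. Cnp itself was at 283 and 321 CPM in MOL of WT and at 219 and 265 CPM in 5xFAD, compared with 23.1 and 23.2 CPM in Cnp-/- and 24.0 and 32.8 CPM in Cnp-/- 5xFAD, as the labels have it. Its log2 change was -3.32 ± 0.17 (SE), with an adjusted P of 0.000801 by the quasi-likelihood F test of edgeR, adjusted over all genes tested after Benjamini and Hochberg.

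None of the 8 members passed the test in MOL upon loss of Cnp, in a fit that called 0.765% of 8761 genes. Of the 8, 6 were higher and 2 lower, with a median log2 change of 0.11, compared with -0.03 over all genes tested. DESeq2 called 0 members too. In edgeR 3 members had an unadjusted P under 0.05, namely Opalin, Cldn11 and Mbp, as did 1052 of the 8761 genes.

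Opalin in MOL was at 448 and 372 CPM in WT, 399 and 543 CPM in 5xFAD, 494 and 607 CPM in Cnp-/- and 508 and 686 CPM in Cnp-/- 5xFAD. The mean was 441 ± 75.2 CPM with Cnp and 574 ± 90.5 CPM without (SD, n = 4 each), the ranges overlapped, and the log2 change of 0.46 ± 0.16 (SE) had an adjusted P of 0.295 in edgeR. Without the filter on low counts, Opalin did pass the threshold in edgeR (adjusted P = 0.0437), in a fit that called 544 of 20655 genes.

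Cldn11, the tight junction protein of myelin, was at 433 and 489 CPM in WT, 483 and 405 CPM in 5xFAD, 545 and 550.1 CPM in Cnp-/- and 491 and 541 CPM in Cnp-/- 5xFAD. It was the only member whose 4 Cnp-deleted libraries all lay above the 4 others, with 489 CPM as the highest level with Cnp and 491 CPM as the lowest without, while 3.96% of all genes tested were ordered in this way. Its log2 change was 0.30 ± 0.11 (edgeR, adjusted P = 0.317). The summed level of the 11 oligodendrocyte genes outside myelin had the same order in MOL, at 45893 to 51648 CPM with Cnp and 52721 to 60450 CPM without, and its part in the members' values was not tested.

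Mbp was at 5182 and 5372 CPM in WT, 5343 and 4875 CPM in 5xFAD, 5930.0 and 6393 CPM in Cnp-/- and 5108 and 6062 CPM in Cnp-/- 5xFAD. The means of 5193 ± 228 and 5873 ± 546 CPM (SD, n = 4 each) differed by 0.25 ± 0.10 on the log2 scale, with an adjusted P of 0.347 in edgeR. Both Cnp-/- libraries exceeded every library with Cnp, while Cnp-/- 5xFAD replicate 1 lay within their range.

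The 5 other members differed by between -0.14 (Ugt8a) and 0.11 (Mag) on the log2 scale, with SE between 0.10 and 0.21. Mog ranged from 1163 to 1490.2 CPM over the 8 libraries, Mag from 1295 to 1529 CPM and Mobp from 1252 to 1861 CPM. Mal had the widest spread relative to its mean, from 298 to 695 CPM, and WT replicate 2 was its highest library. Of 30 other genes of myelin and its makers, all of which were tested in MOL, none rose and 2 fell, Cnp and Anln, whose product anillin helps to assemble septin filaments in myelin. Anln was at 456 and 731 CPM in WT, 602 and 449 CPM in 5xFAD, 260.1 and 278 CPM in Cnp-/- and 200.1 and 191 CPM in Cnp-/- 5xFAD, without overlap, and its log2 change was -1.21 ± 0.18 (edgeR, adjusted P = 0.0353). Anln no longer passed when any of 6 single libraries was left out (all but WT replicate 1 and Cnp-/- replicate 1), with changes of -1.32 to -1.02. In DESeq2 and without a filter on low counts, 1 of the 30 rose and 5 fell, in fits that called 339 and 544 of 20655 genes. In nuclei of at least 1000 UMIs 3 fell, in a fit that called 103 of 8562 genes. In thinned MOL nuclei, the share with a UMI ranged over the libraries from 97.9% to 99.8% for Mbp, from 68.5% to 77.9% for Mag and from 25.7% to 49.5% for Mal.

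The 5xFAD transgenes were associated with no call in MOL, neither among the 8 members nor among the 8761 genes (0% called), although 326 genes had an unadjusted P under 0.05 and DESeq2 called 2. Of the members, 7 were lower and 1 higher in 5xFAD, with a median of -0.09 compared with -0.0053 over all genes, and no member had an unadjusted P under 0.05. The members' changes ran from -0.42 ± 0.21 for Mal to 0.12 ± 0.16 for Opalin, each with an adjusted P of 1.00 in edgeR. The term for the interaction of both genotypes gave no call either (0% of genes, 299 at an unadjusted P under 0.05, 2 by DESeq2), and the members ran from -0.29 ± 0.19 (Mog) to 0.50 ± 0.42 (Mal).

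**Figure D2:**
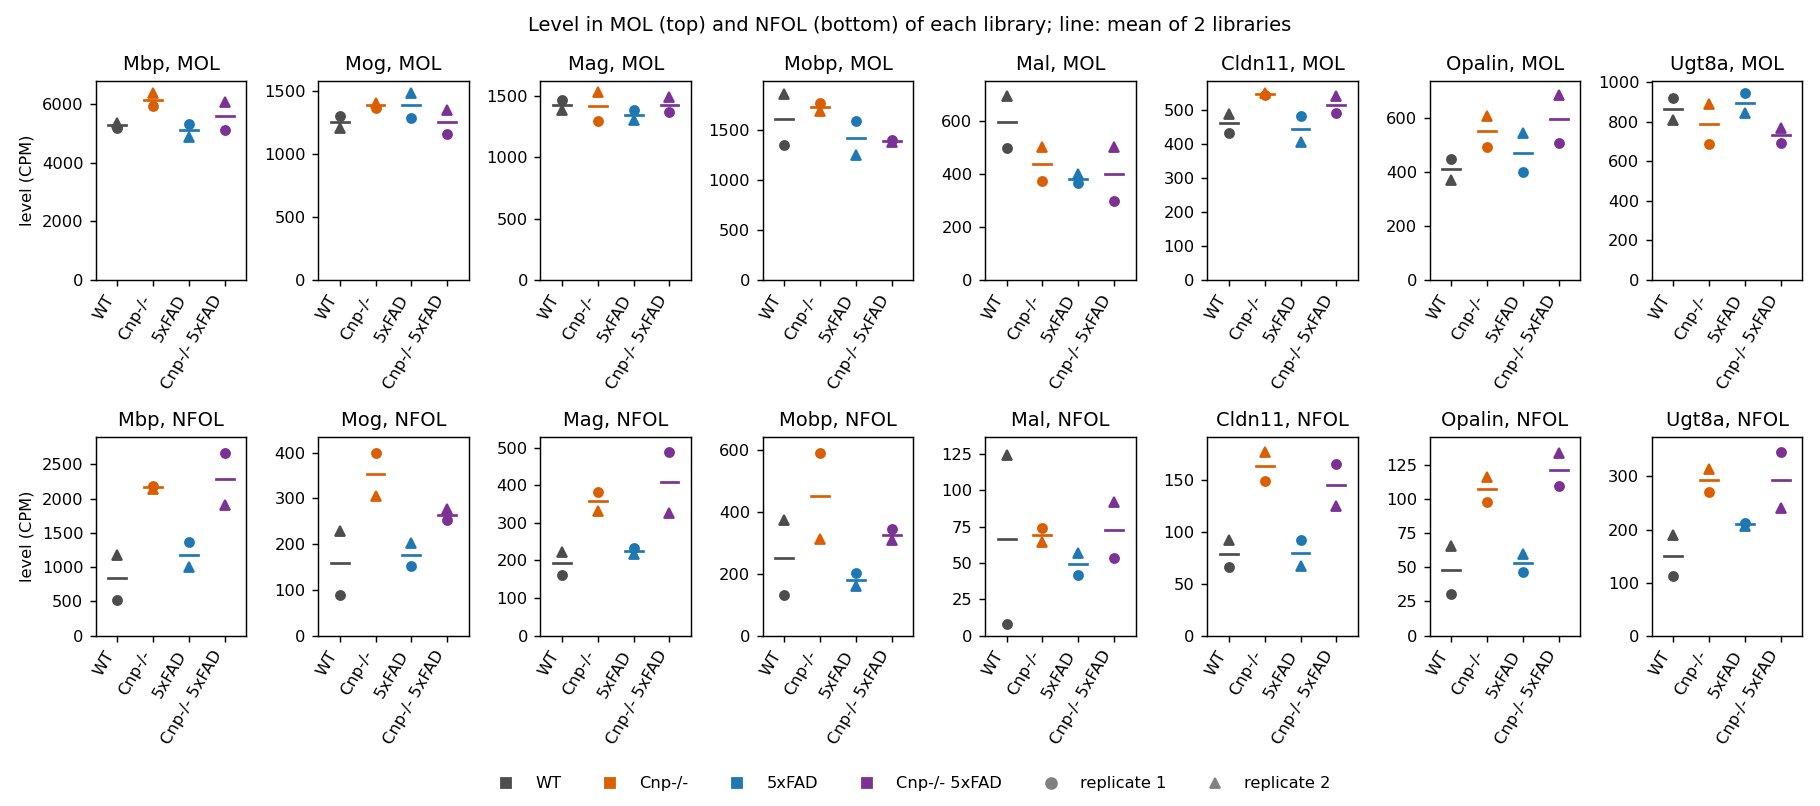
Level in CPM (y axis, from 0) of each myelin gene in MOL (top row) and NFOL (bottom row) for the 4 genotypes (x axis), 1 point per library with replicates 1 and 2 as circles and triangles and a line at the mean of the 2 libraries. In MOL the libraries with and without Cnp overlap for all genes but Cldn11, and in NFOL the 4 libraries without Cnp lie above the 4 with Cnp for Mbp, Mog, Mag, Cldn11, Opalin and Ugt8a.

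In newly formed oligodendrocytes, 4 of the 8 members passed the test, all higher in mice without Cnp, namely Mbp, Opalin, Mag and Cldn11. The fit called 1.6% of 7248 genes in either direction and 0.8% upwards. No member passed among the nuclei with fewer astrocyte than NFOL marker UMIs, as given below. All 8 had a positive change, with a median of 0.92 compared with 0.0079 over all genes tested. For 6 members the level was higher in each of the 4 Cnp-deleted libraries than in each of the 4 others, an order found for 3.27% of genes.

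Mbp in NFOL was at 512 and 1174 CPM in WT and at 1359.7 and 1003 CPM in 5xFAD, compared with 2189.7 and 2137 CPM in Cnp-/- and 2659 and 1905 CPM in Cnp-/- 5xFAD. The mean rose from 1012 ± 364 to 2223 ± 316 CPM (SD, n = 4 each), or by 1.18 ± 0.21 on the log2 scale (edgeR, adjusted P = 0.0151). Every library without Cnp was thus above every library with it, and WT replicate 1 was the lowest of all.

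Opalin was at 30.8 and 65.6 CPM in WT and 46.8 and 59.6 CPM in 5xFAD, and at 98.0 and 116 CPM in Cnp-/- and 109 and 134 CPM in Cnp-/- 5xFAD. It rose by 1.24 ± 0.24 (edgeR, adjusted P = 0.0220). Mag, a sialic acid binding lectin of the innermost myelin layer, was at 162 and 223 CPM in WT, 232 and 217 CPM in 5xFAD, 382 and 332 CPM in Cnp-/- and 488 and 327 CPM in Cnp-/- 5xFAD, a rise of 0.91 ± 0.19 (edgeR, adjusted P = 0.0286). For both genes the groups were apart.

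Cldn11 was at 65.5 and 91.8 CPM in WT, 91.8 and 66.7 CPM in 5xFAD, 149 and 177 CPM in Cnp-/- and 165 and 125 CPM in Cnp-/- 5xFAD, and rose by 0.99 ± 0.21 (edgeR, adjusted P = 0.0323). Mog, at 88.6 to 230 CPM with Cnp and 252 to 399 CPM without, had a change of 0.94 ± 0.23 just outside the threshold (edgeR, adjusted P = 0.0516). Ugt8a, at 112 to 213 CPM with Cnp and 241 to 346 CPM without, had a change of 0.77 ± 0.20 (edgeR, adjusted P = 0.0653). Both kept their groups apart although neither passed.

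Mobp ranged from 131 to 374 CPM with Cnp and from 309 to 591 CPM without, where the value of 374 CPM belonged to WT replicate 2, and its change of 0.91 ± 0.26 did not pass (edgeR, adjusted P = 0.100). Mal had the least even values, with 7.71 and 125 CPM in the 2 WT libraries and 53.4 to 92.1 CPM without Cnp, and its change of 0.48 ± 0.43 had an adjusted P of 0.727. Of the 30 other myelin genes 26 were tested in NFOL. There Tspan2, a tetraspanin of oligodendrocytes, rose by 1.26 ± 0.23 (edgeR, adjusted P = 0.0170), and Aspa, the aspartoacylase that supplies acetate for myelin lipids, rose by 1.16 ± 0.25 (edgeR, adjusted P = 0.0337). Neither passed without WT replicate 1 or Cnp-/- replicate 1, where Tspan2 was at 0.93 and 1.09 and Aspa at 0.895 and 1.07, and Aspa did not pass without 5xFAD replicate 1 or Cnp-/- 5xFAD replicate 2 either (0.974 and 0.955). Cnp fell by 2.26 ± 0.51 on the log2 scale (edgeR, adjusted P = 0.0366, with no adjusted P in DESeq2), a call kept only without WT replicate 1 or 5xFAD replicate 1 when 1 library was left out (-1.45 without WT replicate 2).

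The composition of the NFOL nuclei also differed between the libraries, although the astrocyte sum of WT replicate 2 lay within the range without Cnp. The 6 astrocyte markers summed to 3884 and 1633 CPM in WT and 2474 and 3260 CPM in 5xFAD, but to 1490.2 and 1590.1 CPM in Cnp-/- and 1685 and 1819 CPM in Cnp-/- 5xFAD, and all 6 markers had UMIs in NFOL. The library with the highest astrocyte sum, WT replicate 1, had the lowest sum of the 8 members (1109.7 CPM, compared with 1973 to 2473 CPM in the other 3 libraries with Cnp and 3408 to 4418 CPM in the 4 without). In WT replicate 1, 26 of 37 NFOL nuclei held at least as many astrocyte as NFOL marker UMIs, or 70.3%, compared with 25.0% to 52.1% in the other 7 libraries. Oligodendrocyte genes outside myelin were higher without Cnp. The 11 such genes on the list summed to 10731 and 15442 CPM in WT, 13563 and 11995 CPM in 5xFAD, 18636 and 18004 CPM in Cnp-/- and 18657 and 17604 CPM in Cnp-/- 5xFAD, without overlap. The MOL markers summed to 1426 to 3608 CPM with Cnp and 3447 to 4000 CPM without. The 8 microglia markers summed to 308 and 112 CPM in WT, 468 and 312 CPM in 5xFAD, 635 and 414 CPM in Cnp-/- and 442 and 597 CPM in Cnp-/- 5xFAD. The MOL marker and microglia marker sums overlapped between libraries with and without Cnp. The part of these 3 lists in the result was not tested.

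Leaving out these 172 of 465 nuclei, a step chosen after the data were seen, raised the members' sum to 2297 and 3148 CPM in WT, 3726 and 3486 CPM in 5xFAD, 4849 and 4451 CPM in Cnp-/- and 6185 and 3719 CPM in Cnp-/- 5xFAD. The groups then overlapped by 1 library, Cnp-/- 5xFAD replicate 2. The step also favours nuclei with many NFOL marker UMIs, and these markers summed to 966 to 1173 CPM in astrocytes. The step therefore did not select nuclei by astrocyte transcripts alone. In the nuclei kept, the astrocyte markers Slc1a2 and Slc1a3 were at 215 and 196 CPM pooled, below their 330 and 300 CPM in OPC. WT replicate 1, the lowest, kept 11 nuclei, in which the 8 neuron markers summed to 3515 CPM, compared with 177 to 1113 CPM in the other 7 libraries. No member passed in this fit, which called 9 genes, nor did Tspan2, Aspa or Cnp. The change of the deleted gene Cnp itself was as large there (-2.39 ± 0.55, edgeR, adjusted P = 0.0869), but it rested on 68 UMIs. Cnp in WT replicate 1 was at 14.004 CPM, within the range of 11.97 to 16.85 CPM in the libraries without Cnp. The change therefore came from WT replicate 2 (132 CPM) and the 5xFAD libraries (81.9 and 90.7 CPM). In this fit 7 members were higher, with a median of 0.45, and Mbp had a change of 0.81 ± 0.18 (edgeR, adjusted P = 0.0765). Among the nuclei left out, the sum was 659 and 913 CPM in WT and 311 and 1093 CPM in 5xFAD, and 2794 and 1987 CPM in Cnp-/- and 1582 and 3059 CPM in Cnp-/- 5xFAD. These were 26 and 7 nuclei in WT, 37 and 38 in 5xFAD, 13 and 12 in Cnp-/- and 19 and 20 in Cnp-/- 5xFAD. The part of the astrocyte transcripts in the result was not tested.

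**Figure D3:**
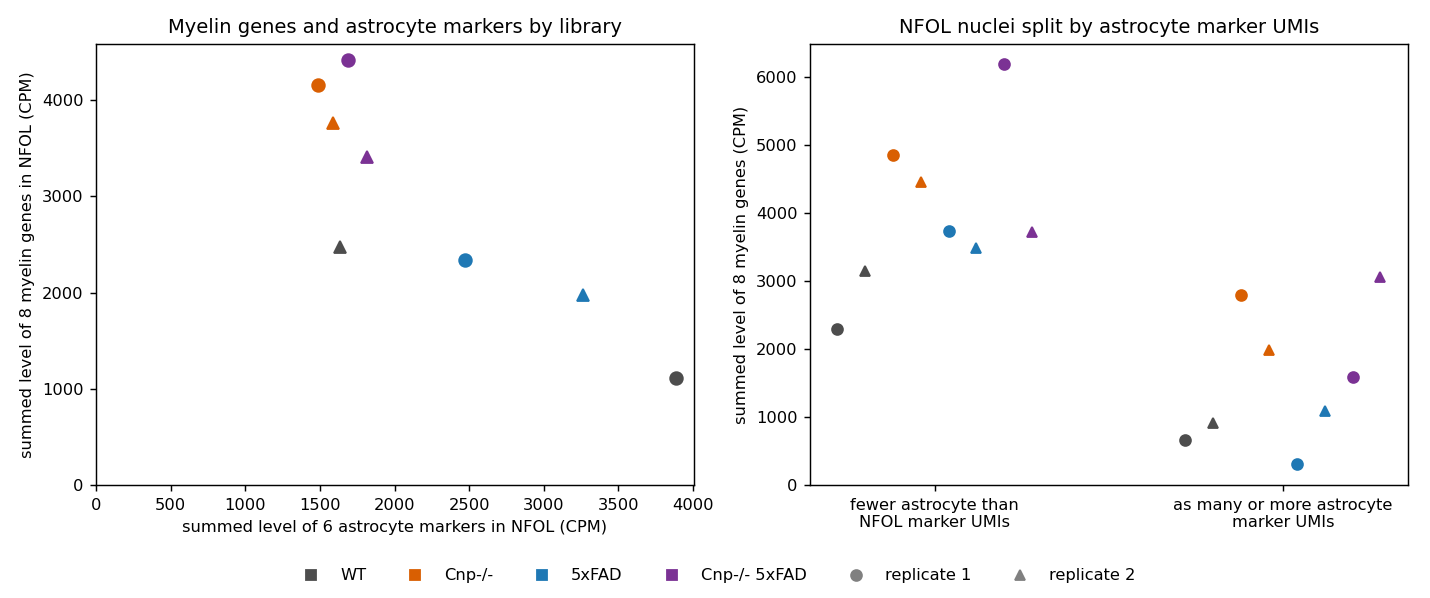
On the left, summed level of the 8 myelin genes in NFOL (y axis, CPM) against the summed level of 6 astrocyte markers (x axis, CPM), 1 point per library. On the right, summed level of the 8 genes (y axis, CPM) in NFOL nuclei with fewer astrocyte than NFOL marker UMIs and in the other NFOL nuclei, 1 point per library; the libraries without Cnp are above those with Cnp in the second set of nuclei, overlap with them by 1 library in the first, and WT replicate 1 is the lowest of all libraries at 1109.7 CPM on the left.

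The count of 4 also rested on single libraries. It rose without WT replicate 2, stayed the same without 5xFAD replicate 1 and fell without each of the others, most without Cnp-/- replicate 1. The number of calls over all genes was likewise highest without WT replicate 2 and lowest without Cnp-/- replicate 1. The changes themselves moved less, since 7 or 8 members were higher in each of these fits, with medians of 0.70 (without WT replicate 1) to 1.33 (without WT replicate 2), and 0.84 without Cnp-/- replicate 1. DESeq2 called 2 members, Mbp and Mag, among 68 calls in 19571 genes. Whether the change differs between NFOL and MOL was not tested.

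The 5xFAD transgenes gave no call in NFOL (0% of 7248 genes in edgeR, 434 at an unadjusted P under 0.05, and 0 in DESeq2). Of the members, 4 were higher and 4 lower, from -0.44 ± 0.26 for Mobp (adjusted P = 0.887) to 0.28 ± 0.21 for Mbp (adjusted P = 0.945).

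**Figure D4:**
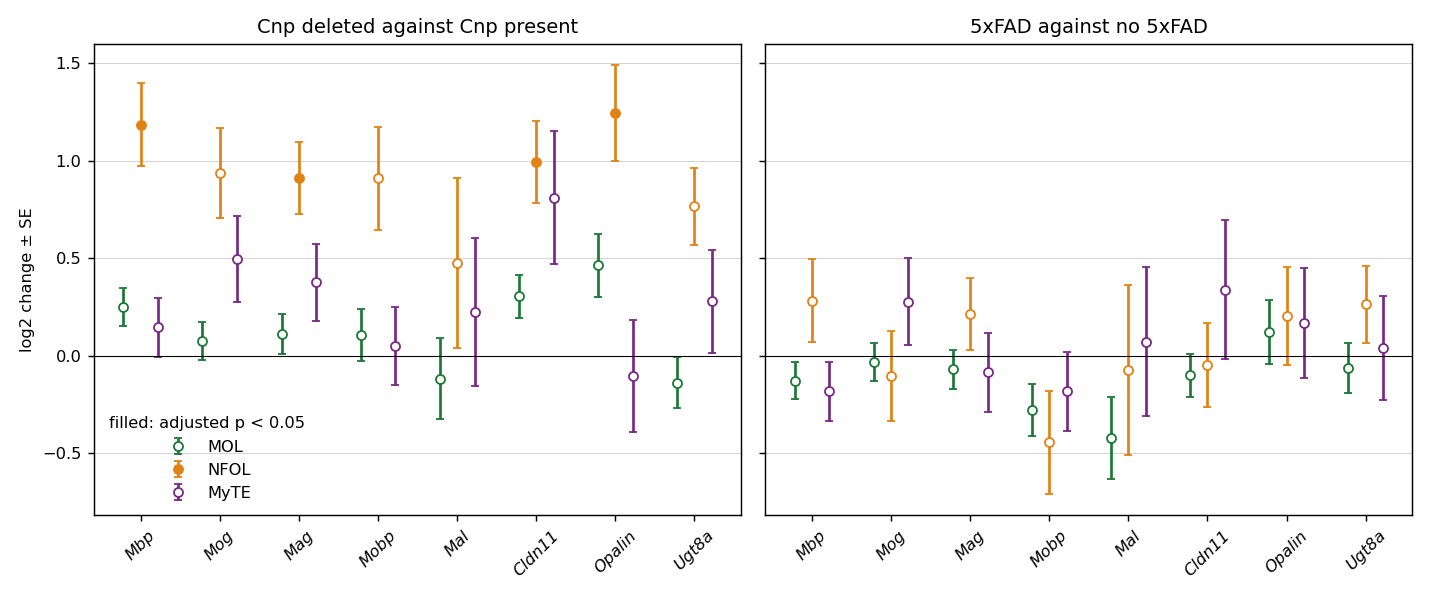
Log2 change ± SE (y axis) of each myelin gene (x axis) in MOL, NFOL and MyTE nuclei, for Cnp deleted against Cnp present (left) and 5xFAD against no 5xFAD (right), from edgeR fits; filled points have an adjusted P under 0.05. The 4 filled points are Mbp, Mag, Cldn11 and Opalin in NFOL, and no point is filled for 5xFAD.

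In OPC just 4 of the 8 members, Mal, Ugt8a, Mobp and Mbp, had counts above the filter, so that the count of members says little there. None passed for loss of Cnp or for 5xFAD, and no gene of 9264 did (0% in each, with 393 and 407 genes at an unadjusted P under 0.05 in edgeR and 1 and 2 genes called by DESeq2). Mbp was at 17.1 and 65.7 CPM in WT, 53.0 and 58.2 CPM in 5xFAD, 79.0 and 88.0 CPM in Cnp-/- and 75.6 and 86.9 CPM in Cnp-/- 5xFAD, with a change of 0.88 ± 0.29 and an adjusted P of 1.00. Mbp passed in the edgeR fit without a filter on low counts (adjusted P = 0.0166), which called 127 of 20030 genes. Pooled, Mbp was at 1.14% of its MOL level in OPC, compared with 0.893% in astrocytes, 1.77% in endothelial cells and 2.19% in neurons. In astrocytes this share was 0.437% to 1.08% with Cnp and 0.789% to 1.88% without. Ugt8a differed by 0.25 ± 0.14 (edgeR, adjusted P = 1.00).

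MyTE nuclei form a cluster of the microglia table that the authors named after its myelin transcripts, so that the transcripts are part of its definition. Their amounts are given as a description. Mbp was at 3523 CPM in WT replicate 1, 2921 and 2743 CPM in 5xFAD, 4121 and 2752 CPM in Cnp-/- and 2775 and 3374 CPM in Cnp-/- 5xFAD. WT replicate 2 held 3 such nuclei and was left out. Pooled over all libraries, MyTE nuclei had 58.1% of the MOL level of Mbp, 57.5% for Mog, 56.5% for Mag, 52.8% for Mobp, 46.9% for Mal, 56.9% for Cldn11, 61.3% for Opalin and 55.3% for Ugt8a. Within single libraries the shares lay between 29.6% (Mal in Cnp-/- replicate 2) and 83.6% (Opalin in 5xFAD replicate 1).

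The ratios between the members were likewise close to those of MOL. Mbp made up 47.1% of the UMIs of the 8 genes in MyTE and 45.9% in MOL, Mobp 12% and 12.9%, Mag 11.6% in both, Mog 11.1% and 11%, and Ugt8a 6.65% and 6.81%. In NFOL these shares were 55.5% for Mbp and 7.82% for Mog. A single MyTE nucleus held a median of 17 UMIs from 6 of the 8 genes, the same medians as a MOL nucleus, but at a median depth of 2762 compared with 1515 UMIs, and 1 of 270 held none. After thinning the median was 4 genes in MyTE and 5 in MOL, and at least 4 of the 8 were found in 52.6% and 83.3%.

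Oligodendrocyte genes that encode no myelin component were also found in MyTE. There were 11 such genes, among them the transcription factors Sox10 and St18 and the phosphodiesterase Pde4b, and pooled they were in MyTE at 52.5% to 71.4% of their MOL level, with a median of 56.3%, compared with a median of 56.7% for the 8 members. Dock10 had the highest share, and it was also found in other microglia at 1231 CPM. The 8 microglia markers were in MyTE at 39.2% to 46.4% of their level in the other microglia, with a median of 41.6%, and Csf1r, the receptor that microglia depend on, was at 415 CPM in MyTE, 1012 CPM in other microglia and 2.01 CPM in MOL. MyTE nuclei had a median of 2762 UMIs, compared with 1515 in MOL and 1209 in other microglia. How doublets were treated is not given in the sources used here, and the part of droplets with nuclei of 2 cells was not tested.

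Cnp in MyTE nuclei followed the genotype, with 296 CPM in WT replicate 1 and 86.4 and 241 CPM in 5xFAD, compared with 28.1 and 0 CPM in Cnp-/- and 21.2 and 14 CPM in Cnp-/- 5xFAD, and it fell by 3.29 ± 0.57 on the log2 scale (edgeR, adjusted P = 0.00826). Cnp did not pass in DESeq2 or without Cnp-/- replicate 1, Cnp-/- replicate 2 or 5xFAD replicate 2, with changes of -5.47, -3.10 and -2.91 in the last 3 cases. The value of -5.47 is poorly determined, since the Cnp-/- library left in that fit was at 0 CPM. The members did not pass in the same fit of 7 libraries, with 0 of 8 called for loss of Cnp where 0.239% of 5438 genes were, and 0 of 8 for 5xFAD where 0.0736% were. For loss of Cnp 7 were higher, from -0.10 ± 0.29 for Opalin to 0.81 ± 0.34 for Cldn11 (adjusted P = 0.489), and the median was 0.25 compared with 0.11 over all genes. Cldn11 and Mog had an unadjusted P under 0.05 in edgeR, as did 493 of the 5438 genes, and no member was called by DESeq2. For 5xFAD the members ran from -0.18 ± 0.15 (Mbp) to 0.34 ± 0.36 (Cldn11, adjusted P = 0.843), none with an unadjusted P under 0.05.

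**Figure D5:**
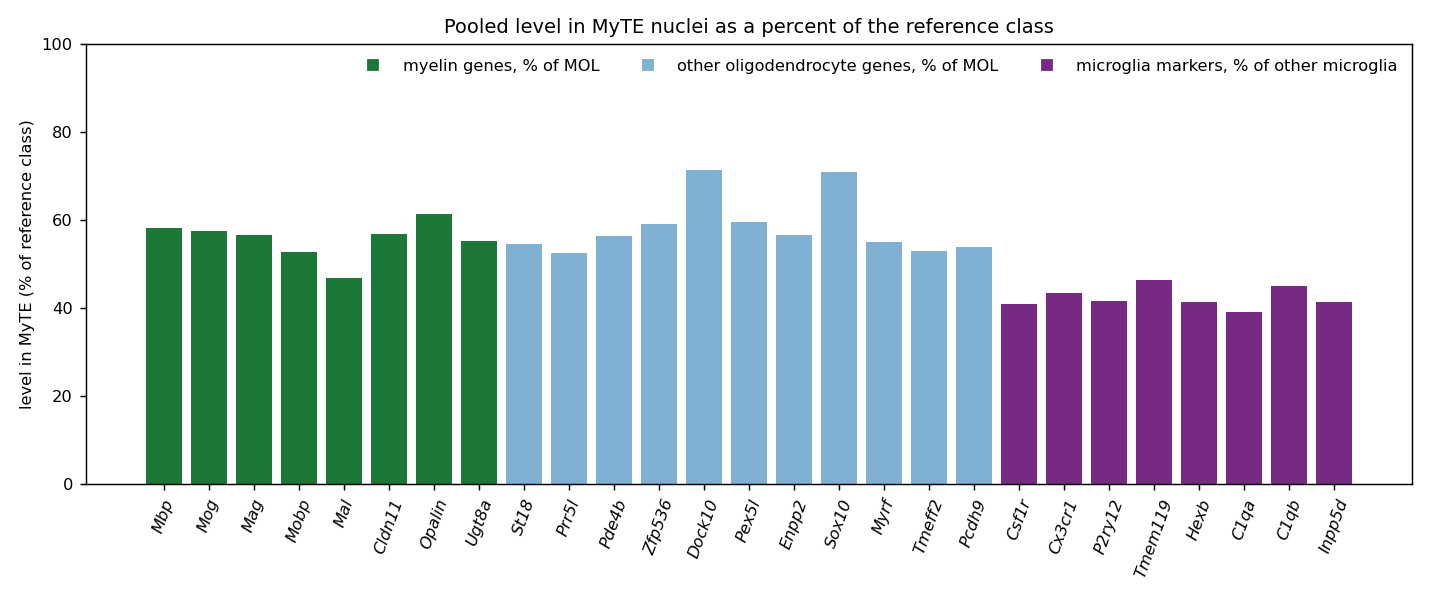
Pooled level in MyTE nuclei as a percent of a reference class (y axis) for the 8 myelin genes and 11 other oligodendrocyte genes (percent of MOL) and for 8 microglia markers (percent of other microglia), 1 bar per gene. The myelin genes lie between 46.9% and 61.3%, the other oligodendrocyte genes between 52.5% and 71.4% and the microglia markers between 39.2% and 46.4%.

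Microglia other than MyTE, that is homeostatic and both disease-associated states, held few myelin UMIs. The 8 genes together summed to 0 to 210.1 CPM per library over 1816 nuclei, and 84.9% of these nuclei held none. The library at 0 was Cnp-/- replicate 2, where a count of 0 allows up to 22.3 CPM per gene (3 counts, counting error only). Mbp was at 42.8 and 0 CPM in WT, 44.6 and 0 CPM in Cnp-/-, 80.7 and 63.9 CPM in 5xFAD and 87.6 and 25.8 CPM in Cnp-/- 5xFAD.

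Pooled over the libraries, Mag was at 2.43% of its MOL level in these microglia and the other 7 were at 0.720% to 1.59%. Mag had the highest share of the 8 in 4 of the 7 libraries with counts of any member, but Mal was higher in 5xFAD replicate 1 and Cldn11 in 5xFAD replicate 2 and Cnp-/- 5xFAD replicate 1, at 2.56%, 3.43% and 4.75%. Mag was at 76.1 and 63.3 CPM in WT, 52.8 and 0 CPM in Cnp-/-, 28.1 and 11.1 CPM in 5xFAD and 35.0 and 31.5 CPM in Cnp-/- 5xFAD, in 81 of 1816 nuclei. After thinning, 3.71% of other microglia held a Mag UMI, compared with 2.34% of endothelial nuclei, 2.29% of macrophages, 1.23% of neurons and 0.652% of astrocytes, while Mog was in 1.13% of other microglia. Cd22, a sialic acid binding receptor of the same family, starts 18833 bases downstream of Mag on the same strand of chromosome 7, and it was at 0 CPM in both WT libraries, 20.3 and 22.3 CPM in Cnp-/-, 5.63 and 19.4 CPM in 5xFAD and 25.3 and 11.5 CPM in Cnp-/- 5xFAD (a count of 0 allows up to 14.3 and 38.0 CPM in the WT libraries, for counting error only). The libraries differ in the clusters that the authors named, since 155 of 157 and 48 of 48 nuclei of WT were Homeostatic, compared with 106 of 203 and 64 of 105 in Cnp-/-. Pooled by cluster, Cd22 was at 8.11 CPM in Homeostatic, 13.7 CPM in AD_DAM and 40.7 CPM in Myelin_DAM nuclei (both clusters of disease-associated microglia), and Mag at 42.2, 25.2 and 25.0 CPM. For Cd22 these were 10, 12 and 13 UMIs, and the order differed between libraries. In the same clusters it was at 8.11, 49.2 and 29.2 CPM in Cnp-/- replicate 1, where AD_DAM held just 14 nuclei and 20339 UMIs. Cnp-/- replicate 2 gave 0, 0 and 63.6 CPM. The Cnp-/- 5xFAD libraries gave 22.7, 16.6 and 51.8 CPM (replicate 1) and 13.5, 0 and 35.4 CPM (replicate 2). Those of 5xFAD gave 4.05, 7.13 and 0 CPM and 11.6, 27.9 and 0 CPM, with 5 and 7 Myelin_DAM nuclei. Mag and Mbp were the only members above the filter there, and neither passed for loss of Cnp, where 0.484% of 6618 genes did, or for 5xFAD, where 0.559% did.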

How the data were processed

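Single-nuclei RNA-seq was performed by the authors on 8 libraries, 2 for each of 4 genotypes. Per the labels and the methods of the study, reads were aligned with Cell Ranger 6.1.2 to mm10, ambient transcripts were removed with CellBender, and nuclei were filtered, combined, clustered and named, mainly in Seurat. The deposited tables hold raw UMI counts per gene and nucleus after these steps, 1 for all cell types and 1 for microglia with macrophages. The treatment of doublets and the counting of introns are not given in the sources used here. The tables hold no nucleus below 501 UMIs or 301 detected genes. CellBender lowers counts of genes that are abundant in free RNA, which can include myelin transcripts.

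Counts were summed per library and class, where MyTE and the other microglia come from the microglia table and 181 microglia nuclei without a subtype were kept apart. Levels are CPM of the summed counts. Sums of at least 5 nuclei were tested in edgeR 4.0.16 (R 4.3.3) with filterByExpr, TMM scaling, 1 mean per genotype, the quasi-likelihood F test and Benjamini-Hochberg adjustment over all genes tested, at a threshold of 0.05. Loss of Cnp is the mean of both Cnp-deleted genotypes against both others, and 5xFAD likewise. Errors are SE for log2 changes and SD for levels, and both ± values stand on that scale. Classes were tested separately and not against each other. The alternatives were DESeq2 1.42.0, its size factors, no filter, a replicate block, nuclei of at least 1000 UMIs, sums of at least 10 nuclei for MyTE, myelin genes left out of the library sizes in MOL, and each library left out in turn. The procedure was run on simulated counts for loss of Cnp in MOL and NFOL, which held no differences in the composition of the nuclei. Named were the 8 members, Cnp, up to 4 called genes of the list of 30 other myelin genes and the 5 genes most like the members over profiles of at least 20 nuclei. Of the genes the rule named, 1 is not reported here. The members and lists were chosen with earlier results of these data known.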

Additional observations from a re-analysis of the deposited data

Results flagged for a closer look

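Among 56 sets of 4 libraries, namely the 8 genes in OPC, NFOL, MOL and MyTE with and without Cnp where 4 libraries were present, 4 held a library far from the other 3 by Dixon's criterion, where chance gives about 1 in 20. Mobp in NFOL of Cnp-/- replicate 1 was at 591 CPM, whereas the other 3 libraries without Cnp were at 309 to 346 CPM. Mal in OPC of WT replicate 2 was at 28.5 CPM, compared with 0 to 4.85 CPM in the other 3 libraries with Cnp. Cldn11 in MOL of Cnp-/- 5xFAD replicate 1 was at 491 CPM, below the 541 to 550.1 CPM of the other 3 libraries without Cnp. Ugt8a in MyTE of Cnp-/- replicate 2 was at 725 CPM, compared with 408 to 454 CPM in the other 3.

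The 181 microglia nuclei without a subtype, 9 to 31 a library, entered no comparison. Mbp there was at 882 and 231 CPM in WT and at 938 CPM or more in each of the 6 mutant libraries, up to 2165 CPM in Cnp-/- 5xFAD replicate 2. WT replicate 2 held 9 such nuclei, in which macrophage and neuron markers summed to 3580 and 4850.2 CPM, compared with 183 to 926 and 948 to 4000 CPM in the other 7 libraries. Not every member had this order, since Cldn11 was at 118 CPM in WT replicate 1 and at 77.1 to 198 CPM in the mutant libraries, and Mobp at 185 CPM in WT replicate 2 but at 157 and 100.2 CPM in 5xFAD replicate 2 and Cnp-/- 5xFAD replicate 1. Pooled over the libraries, the 8 genes stood at 15.9% (Mal) to 23.9% (Mog) of their MOL level in these nuclei, which had a median of 3880.0 UMIs, and 30.4% of them held no UMI of any member.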

How the results depend on the processing

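For the members, the number of calls in NFOL upon loss of Cnp depended most on the processing, while their median log2 change (0.92) was 0.92 to 0.94 without a filter, with the block and in DESeq2, and 0.70 to 1.33 without 1 library. The 4 members called became 7 without a filter on low counts, 2 in DESeq2, where Opalin and Mal had no adjusted P, and 0 in nuclei with fewer astrocyte than NFOL marker UMIs, where the median was 0.45 and Mal had a log2 change of -0.25. Leaving out 1 library gave 0 to 8. With the replicate number as a block it was 1, Opalin, and the calls for Cnp in NFOL (-2.24, adjusted P = 0.0664) and Anln in MOL (-1.21, adjusted P = 0.0795) were lost. The numbers did not pair the samples (r of -0.088 to 0.161 between same-numbered libraries in MOL). In MOL and OPC, 1 member each (Opalin and Mbp) was called for loss of Cnp without the filter. DESeq2 size factors moved no count of members, nor did leaving the myelin genes out of the library sizes, which was run in MOL alone.

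Over all genes, the calls for loss of Cnp in MOL were 544 without the filter, 23 with the block, 339 in DESeq2, 103 in nuclei of at least 1000 UMIs and 2 to 262 without 1 library. For 5xFAD and the interaction in MOL they were 37 and 44 without the filter and 2 and 2 in DESeq2. In NFOL, loss of Cnp gave 344 without the filter, 43 with the block, 68 in DESeq2, 9 in the nuclei with fewer astrocyte markers and 15 to 366 without 1 library, and 5xFAD gave 47 without the filter, 12 in those nuclei and 0 to 12 without 1 library. In OPC, loss of Cnp and 5xFAD gave 127 and 110 without the filter and 1 and 2 in DESeq2, and loss of Cnp 0 to 3 without 1 library. In MyTE they gave 27 and 7 without the filter, 1 and 0 in DESeq2, and 0 to 16 and 0 to 6 without 1 library. In the other microglia they gave 169 and 253 without the filter, 93 and 128 in DESeq2, and 0 to 26 and 12 to 37 without 1 library, and 5xFAD 19 with the block.

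Among single genes, the sign turned without 1 library for Mal in MOL (-0.33 to 0.057) and in NFOL (-0.13 to 1.86) for loss of Cnp, for Opalin in MOL with 5xFAD (-0.001 to 0.23), and in MyTE for Opalin upon loss of Cnp (-0.24 to 0.013) and Mbp with 5xFAD (-0.32 to 0.01). The cause was not tested in any of these cases. In MyTE no WT library could be left out, since 1 entered the fit. Precision was limited by 2 libraries a genotype and by few nuclei, 22 to 104 NFOL and 3 to 59 MyTE a library.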
